A study of Mus musculus with 15 samples.

Results

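The MYC, MAX and MXD network is a family of related transcription factors that compete for a shared partner. Its 10 members in these data were the activators Myc, Mycn and Mycl1, the partners Max and Mlx, and the antagonists Mxd1, Mxi1, Mxd3, Mxd4 and Mnt, and they were found by gene symbol among the 20207 genes of each table. RNA from NIH3T3 cells, a mouse fibroblast line, was measured by mRNA-seq in 15 samples. All of the cells stably carried DD-sfGFP, superfolder GFP joined to the L106P destabilizing domain (DD), a mutant of FKBP that is folded only while the ligand Shield-1 (S1) is bound. The construct had been inserted with the PiggyBac transposon, and cells with high GFP had been sorted, so every group came from the same sorted population of this line. The 5 control samples (cont, 0 min) were not stressed and held folded DD. The other groups were collected after S1 had been removed by adding purified FKBP(F36V) protein, with 3 samples at 45 min (DD 45min), 3 at 135 min (DD 135min) and 4 at 405 min (DD 405min). Addition of that protein and the time since then went with the groups, so their effects cannot be told apart here from those of unfolded DD. The study's cells with GFP alone, which showed no significant changes in the genes it measured by RT-qPCR after S1 withdrawal, are not among these 15 samples. The labels do not say that replicates came from separate cultures, so p-values measure the spread between these samples, which may be technical. The comparison asks how the network was set at rest and how its activating and antagonizing arms stood at each time after an unfolded protein appeared in the cell.

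MYC proteins pair with MAX through a basic helix-loop-helix leucine zipper, bind E-box sequences and recruit coactivators such as the TRRAP-containing acetyltransferase complexes. MXD1, MXI1, MXD3, MXD4 and MNT also pair with MAX and bind the same E-boxes, but they bring SIN3 corepressors, and most MXD proteins are made as cells leave the cycle. MLX is a MAX-like partner for the glucose-sensing Mondo proteins and for some MXD and MNT proteins. In fibroblasts, MYC is an immediate response to serum growth factors, and its RNA and protein are both short-lived.

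The shared binding sequence, the E-box CACGTG, stood in the promoters of several members themselves. Promoter windows from RefSeq (mouse build GRCm38.p6), 250 bases before to 50 bases after a gene's start, were searched on both strands, which for this palindrome are the same, with no other motif searched. The motif was in 7.15% of 32851 windows, and 8.09% of 27025 genes had it in at least 1 window. Of the 9 members with an entry, 4 held it, namely Max, Mlx, Mnt and Mxd4, while the windows of Mycn, Mycl1, Mxd1, Mxd3 and Mxi1 did not have these letters. In the list of 30 genes known as MYC-activated, it was in 6 of 24 genes with an entry. The sequences shown are the stretches around the motif in the 4 members, followed by those of Ldha, which fell at 405 min, and Cdk4, which had the most motifs of the genes examined and passed no test. Capitals mark the E-box, each sequence reads 5′ to 3′ on the gene's strand, and a match in these letters is not evidence of binding.
Max, chr12:76962246-76962275, minus strand: ctaccccggcgcggtgagcccggtCACGTG
Mlx, chr11:101087238-101087267, plus strand: ggtgggttggatCACGTGactgagcctcgc
Mnt, chr11:74830789-74830818, plus strand: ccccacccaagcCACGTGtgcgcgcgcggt
Mxd4, chr5:34187912-34187941, minus strand: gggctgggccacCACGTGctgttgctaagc
Ldha, chr7:46845647-46845773, plus strand: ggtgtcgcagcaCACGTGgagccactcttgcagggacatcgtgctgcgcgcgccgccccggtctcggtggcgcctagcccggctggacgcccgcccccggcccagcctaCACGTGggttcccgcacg
Cdk4, chr10:127063351-127063534, plus strand: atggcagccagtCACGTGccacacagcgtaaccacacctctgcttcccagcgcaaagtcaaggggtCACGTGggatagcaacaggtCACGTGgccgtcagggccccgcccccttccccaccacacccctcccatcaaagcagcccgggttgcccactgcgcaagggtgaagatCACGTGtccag
The E-box of Max began 3 bases before its start and ran across it. Those of Mlx, Mnt and Mxd4 began 40, 123 and 219 bases before theirs.

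Library totals ranged from 6652539 counts (control replicate 3) to 30258404 counts. Control replicate 3 also had the lowest Mxd1 of all samples. Its Myc was the highest of all samples in CPM (counts scaled to a common library total), at 219 CPM. In the deposited RPKM (reads scaled to transcript length and library size) its Myc was 26.0, within the control range of 25.9 to 37.9. Values without this library are given where it decides a result. The libraries were split into 2 sets at the largest gap in the slope of expression on GC content. Set 2 had slopes of -0.36 to 0.06 log2 units per 10 percentage points. It held control replicate 2, 45 min replicate 3 and 405 min replicates 1, 2 and 4. Set 1 (slopes of -1.41 to -0.66) held the other 10 samples, including all 3 from 135 min. Within set 1, control replicate 3 stood apart about as far, with a slope of -1.412 against -1.125 in control replicate 4, the next lowest. The sets differed in 5146 of 10276 genes tested, among them Mlx and Mnt. Because the sets were drawn from these same counts, this number and the set differences of single members describe the split and do not test it. The changes of the members tested at 405 min are also given with the set as a covariate. Fibroblast markers were high in every library, with Vim at 738.6 to 1759 RPKM and Col1a1 at 158 to 376 RPKM. The epithelial, immune and endothelial markers Epcam, Cdh1, Ptprc, Pecam1 and Cdh5 did not exceed 0.290 RPKM, and Cd68 reached 1.90 RPKM.

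Per length of transcript, the resting network was led by Myc and Max. Mean control levels were 29.7 ± 5.13 RPKM for Myc and 13.1 ± 2.76 for Max (SD, n = 5), which placed Myc at percentile 93.6 and Max at percentile 86.8 of all genes. The control ranges of Myc, Max and the next gene, Mxd3 (4.64 ± 2.57 RPKM), did not overlap. Mlx (2.86 ± 0.820), Mnt (2.66 ± 1.11) and Mxi1 (1.62 ± 0.616) followed with overlapping ranges, as did Mxd4 (0.660 ± 0.740), Mycn (0.287 ± 0.174) and Mxd1 (0.245 ± 0.167). The deposited RPKM took Mxd4 as 0.49 times as long as Myc. Its longest annotated transcript has 3872 bases against 2338 for Myc, so the place of Mxd4 among these genes depends on the length used. Mycl1 was last, with a single count in 1 of 5 control libraries.

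The main change was in Myc, whose RNA fell after S1 removal. Myc (chromosome 15, 61816896 to 61821916, plus strand, build mm9) was at 159, 179.8, 219, 128 and 116 CPM (counts scaled to a common library total) in control replicates 1 to 5 and at 129, 126 and 135 CPM in the 45 min samples. It was at 49.7, 58.4 and 55.9 CPM at 135 min and at 93.5, 77.3, 56.0 and 91.6 CPM at 405 min. All 7 samples of the later times lay below all 5 controls, whereas every 45 min sample lay inside the control range. In a culture, fewer cells that make an RNA and less of it per cell cannot be told apart. Relative to control, Myc was 0.39 lower at 45 min on the log2 scale (SE 0.22), which did not pass the test (edgeR quasi-likelihood, adjusted p = 0.698). It was lower by 1.55 at 135 min (log2 fold change -1.55, SE 0.23, adjusted p = 0.0021 by edgeR) and by 1.15 at 405 min (log2 fold change -1.15, SE 0.20, adjusted p = 0.00191 by edgeR).

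Myc was the only one of the 7 tested members called lower at 135 min, where 0.895% of all genes were called lower and 0.564% higher. At 405 min 13.4% of genes were called lower and 9.99% higher, and Myc was again the only tested member called lower. No member and no gene was called at 45 min (0% higher and 0% lower by edgeR, 365 genes at an unadjusted p under 0.05, and 6 genes by DESeq2). With the library set as a covariate, the log2 fold change of Myc was -1.52 (SE 0.21, adjusted p = 0.000438 by edgeR) at 135 min and -1.25 (SE 0.22, adjusted p = 0.00121) at 405 min. Under that fit 4.88% of genes were called lower and 3.06% higher at 135 min, and 6.87% lower and 6.17% higher at 405 min. Within set 2 alone, the 3 samples from 405 min had 77.3 to 93.5 CPM against 179.8 CPM in the 1 control, and within set 1 the 1 sample from 405 min had 56.0 CPM against 116 to 219 CPM in 4 controls. The level at 405 min was not shown to differ from that at 135 min (log2 fold change 0.41, SE 0.23, adjusted p = 0.245 by edgeR).

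**Figure D1:**
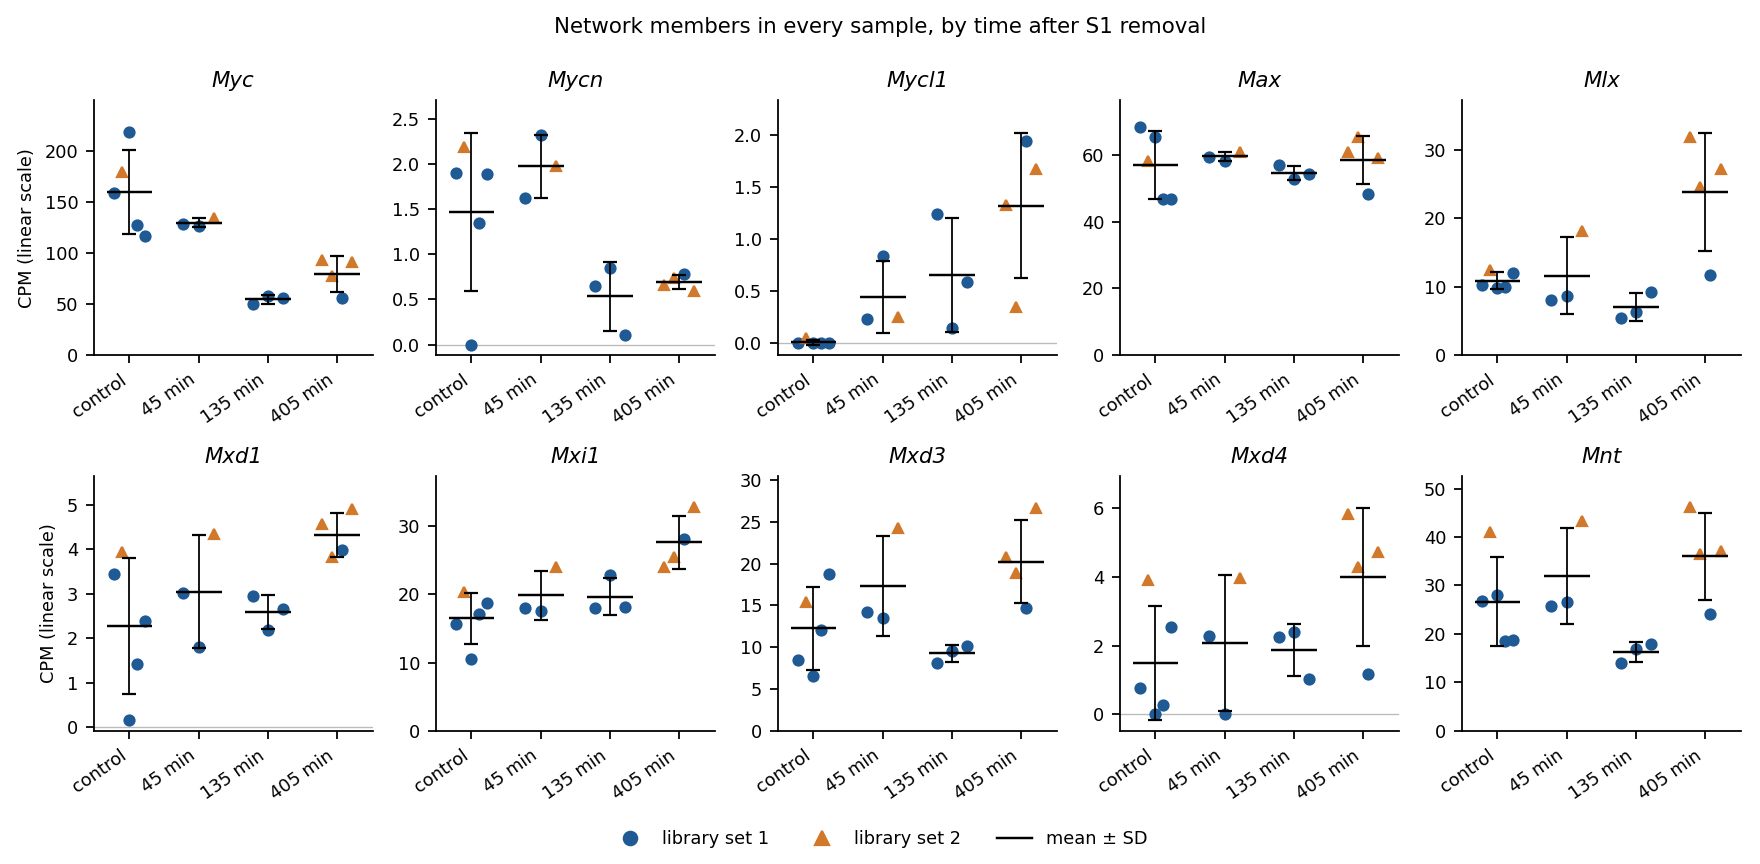
CPM (linear axis) of the 10 network members in each sample, by time after S1 removal. Points are samples coloured by library set, the bar is the mean and the whisker the SD (n = 5, 3, 3 and 4). The 135 and 405 min points of Myc (49.7 to 93.5 CPM) lie below all controls (116 to 219 CPM), the Max points after S1 removal lie within the control range, and the triangles of Mlx and Mnt lie above the circles of the same time.

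Mycn, the N-MYC gene of embryonic and neural tissue (chromosome 12, 12942899 to 12948642, minus strand), was a minor activator here. It had 1.90, 2.19, 0, 1.35 and 1.89 CPM in the controls and 1.62, 2.32 and 1.98 CPM at 45 min. The later samples had 0.649, 0.845 and 0.105 CPM (135 min) and 0.664, 0.737, 0.776 and 0.597 CPM (405 min), or 3 to 17 counts each. Apart from control replicate 3, where it had no count in the shallowest library (a count of 0 there allows up to 0.451 CPM), the lowest control value of 1.35 CPM was above all 7 later samples. Because of that 0 it was not in the main test. With control replicate 3 left out, the log2 fold change at 405 min was -1.49 (SE 0.46, adjusted p = 0.0401 by edgeR), where 9.75% of genes were called lower, and -1.75 (SE 0.51, adjusted p = 0.135) at 135 min. With that library kept, under edgeR's filterByExpr filter in place of the main one, it was -1.20 (SE 0.71, adjusted p = 0.228) at 405 min, and -1.25 (SE 0.78, adjusted p = 0.359) with the library set added. The fit that called it and those that did not differed in both the library and the filter. Its call rested on leaving out control replicate 3, whose 0 went against a fall. The adjusted p of 0.0401 by edgeR is therefore conditional on that choice.

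Mycl1, the L-MYC gene (chromosome 4, 122673342 to 122679723, plus strand), went the other way from very few counts. The controls had 0, 1, 0, 0 and 0 counts, a total of 1. There were 7, 7.95 and 4 estimated counts at 45 min, 21.0, 3 and 17 at 135 min, and 18, 7, 20 and 28 at 405 min. As CPM, all 10 samples after S1 removal (0.149 to 1.94) were above the highest control (0.053), but a count of 0 allows up to 0.162 to 0.451 CPM in those control libraries, and 4 of the 10 values were under the upper of these limits. Summed over libraries and divided by their totals, the 73 counts at 405 min against 1 in control gave a ratio of 88.2 (95% interval 15.3 to 3530), the 41 counts at 135 min a ratio of 45.9 (7.79 to 1860) and the 19 counts at 45 min a ratio of 25.3 (4.01 to 1050). These intervals cover counting error only. Mycl1 was not in the main test either, and it passed the filterByExpr filter only through the groups where it was high, so its change is given without a test. Even at its highest, 0.175 ± 0.0961 RPKM at 405 min (n = 4), Mycl1 remained a small part of the activators beside 15.4 ± 2.69 RPKM of Myc.

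Max is the shared partner of both arms (chromosome 12, 78038256 to 78063235, minus strand). It was at 68.3, 58.1, 65.2, 46.6 and 46.7 CPM in control, at 59.4, 58.2 and 60.9 CPM at 45 min, at 56.8, 52.9 and 54.1 CPM at 135 min and at 60.7, 65.3, 48.3 and 59.1 CPM at 405 min. Every later sample lay within the control range. Its log2 fold changes against control were -0.02 (SE 0.17), -0.06 (SE 0.17) and -0.09 (SE 0.16) at the 3 times, and none passed the edgeR test (adjusted p = 0.963, 0.938 and 0.669). At 405 min it was -0.10 (SE 0.17, adjusted p = 0.754) with the library set as a covariate. The ratio of Myc to Max RPKM was 2.31 ± 0.348 in control, 1.80 ± 0.022 at 45 min, 0.827 ± 0.096 at 135 min and 1.12 ± 0.179 at 405 min (SD).

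Mlx, the partner of the Mondo proteins (chromosome 11, 100948604 to 100953520, plus strand), was higher at 405 min than at the other times. Control samples had 10.2, 12.4, 9.77, 9.96 and 12.0 CPM and the 45 min samples 8.10, 8.65 and 18.2 CPM. The 135 min samples had 5.48, 6.36 and 9.30 CPM, all below the lowest control, and the 405 min samples had 31.9, 24.6, 11.7 and 27.2 CPM, of which 3 were above the highest control. The values of 12.4, 18.2, 31.9, 24.6 and 27.2 CPM are those of library set 2, and the only 405 min sample in set 1 had 11.7 CPM. At 405 min Mlx rose against control (log2 fold change 1.01, SE 0.28, adjusted p = 0.0223 by edgeR) and against 135 min (1.62, SE 0.34, adjusted p = 0.016), where it was the only tested member called and 2.24% of all genes were called higher and 2.82% lower. Its log2 fold change at 135 min against control was -0.60 (SE 0.32, adjusted p = 0.478).

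The rise of Mlx moved with the library set. Across all groups, in a split drawn from these same counts, set 2 had more Mlx than set 1 (log2 difference 0.74, SE 0.22, adjusted p = 0.0121 by edgeR). With the set as a covariate the change at 405 min was 0.53 (SE 0.26, adjusted p = 0.199) against control and 0.99 (SE 0.30, adjusted p = 0.0829) against 135 min. Within set 2, 3 samples from 405 min (24.6 to 31.9 CPM) stood against 1 control (12.4 CPM), and within set 1, 1 sample (11.7 CPM) stood inside the range of 4 controls (9.77 to 12.0 CPM). The call against control was lost without control replicate 4 (adjusted p = 0.0509) or without 405 min replicate 1, 2 or 4 (0.0858, 0.0582 and 0.0688). Part of the locus is shared: 385 of 1999 exonic bases of Mlx (19.3%) overlap Psmc3ip on the other strand in the mm9 annotation, and strand-specific counting is not stated, so its level is uncertain.

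Among the antagonists, Mxi1 was the only one to pass the test. Mxi1, also known as MXD2 (chromosome 19, 53404936 to 53450300, plus strand), had 15.6, 20.3, 10.5, 17.1 and 18.8 CPM in control and 18.0, 17.5 and 24.0 CPM at 45 min. It had 18.0, 22.8 and 18.2 CPM at 135 min and 24.0, 25.5, 28.1 and 32.8 CPM at 405 min. In CPM all 4 samples from 405 min, including the 1 of set 1 (28.1 CPM), were above all 5 controls. In RPKM, 405 min replicate 1 (1.93) lay below control replicates 2 (2.05) and 5 (2.18). The rise at 405 min was a log2 fold change of 0.64 (SE 0.18, adjusted p = 0.0216 by edgeR), and Mxi1 and Mlx were the 2 of 7 tested members called higher there. With the library set as a covariate it was 0.57 (SE 0.18, adjusted p = 0.0541), which missed the threshold, and the difference between sets for Mxi1 was small (0.13, SE 0.16, adjusted p = 0.52). Without 405 min replicate 4 it was 0.57 (adjusted p = 0.0796). At 135 min it was 0.28 (SE 0.19, adjusted p = 0.624).

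Mnt, the broadly expressed antagonist (chromosome 11, 74644426 to 74659227, plus strand), had a dip at 135 min that did not pass the test. It was at 26.9, 41.0, 28.0, 18.6 and 18.8 CPM in control and at 25.8, 26.6 and 43.4 CPM at 45 min. At 135 min it was at 13.9, 16.9 and 17.9 CPM, all below the lowest control, and at 405 min at 46.2, 36.5, 24.2 and 37.1 CPM. The highest value of control, 45 min and 405 min samples each came from set 2. In this split, drawn from the same counts, set 2 had more Mnt than set 1 (log2 difference 0.64, SE 0.17, adjusted p = 0.00477 by edgeR). Its log2 fold change at 135 min was -0.69 (SE 0.27, adjusted p = 0.303), and with the set as a covariate -0.53 (SE 0.19, adjusted p = 0.0902). It was called lower at 135 min in 1 alternative, the fit with both a replicate block and the set (-0.69, SE 0.18, adjusted p = 0.0488). At 405 min it was 0.32 (SE 0.24, adjusted p = 0.318), which turned to -0.03 (SE 0.19, adjusted p = 0.949) with the covariate.

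Mxd3 and Mxd1 did not pass the main test at any time. Mxd3, a member found in proliferating cells (chromosome 13, 55426529 to 55431091, minus strand), had 8.52, 15.4, 6.61, 12.1 and 18.8 CPM in control, 14.2, 13.5 and 24.2 CPM at 45 min, 8.14, 9.49 and 10.1 CPM at 135 min and 20.8, 18.8, 14.6 and 26.7 CPM at 405 min. In the annotation 104 of 2081 exonic bases (5.0%) overlap Prelid1 on the other strand. Control and 405 min ranges overlapped, and the log2 fold change of Mxd3 at 405 min was 0.61 (SE 0.27, adjusted p = 0.0991 by edgeR). With the library set as a covariate it was 0.33 (SE 0.27, adjusted p = 0.452), and without control replicate 5 it was called higher (0.81, SE 0.26, adjusted p = 0.0439). Mxd1, the founding MAD protein (chromosome 6, 86597039 to 86619153, minus strand), had 3.45, 3.95, 0.15, 1.41 and 2.38 CPM in control, 3.01, 1.79 and 4.33 CPM at 45 min, 2.95, 2.19 and 2.65 CPM at 135 min and 4.58, 3.83, 3.98 and 4.90 CPM at 405 min. The low control value was 1 count in control replicate 3. Its log2 fold change at 405 min was 0.81 (SE 0.46, adjusted p = 0.195), 0.54 (SE 0.31, adjusted p = 0.225) without that library, and 0.54 (SE 0.47, adjusted p = 0.49) with the library set as a covariate.

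Mxd4 (chromosome 5, 34519229 to 34530359, minus strand) was scattered within groups. It had 0.774, 3.89, 0, 0.257 and 2.54 CPM in control and 2.28, 0 and 3.95 CPM at 45 min, where the zeros allow up to 0.451 and 0.316 CPM. It had 2.24, 2.39 and 1.01 CPM at 135 min and 5.83, 4.28, 1.16 and 4.72 CPM at 405 min. The 5 samples of set 2 (3.89 to 5.83 CPM) were above all 10 of set 1 (at most 2.54 CPM). It was outside the main test, and with filterByExpr its log2 fold change at 405 min was 1.29 (SE 0.91, adjusted p = 0.307 by edgeR), and 0.35 (SE 0.87, adjusted p = 0.857) with the library set added.

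**Figure D2:**
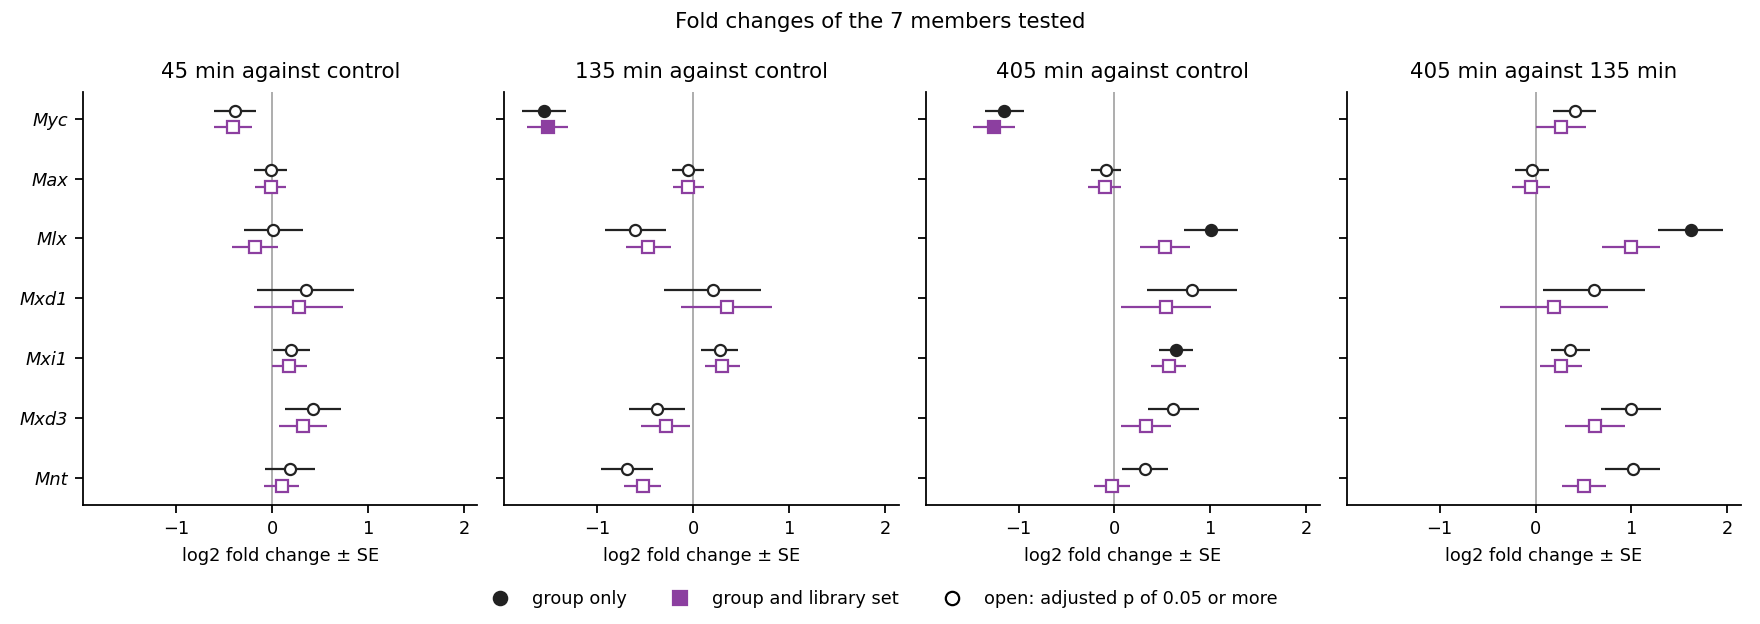
Log2 fold change with its SE of the 7 tested members in 4 comparisons, from a fit with group alone (circles) and with group and library set (squares). Filled symbols have an adjusted p under 0.05, which holds for Myc at 135 and 405 min in both fits and for Mlx and Mxi1 in the group-only fit.

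Myc was weighed against its antagonists per length, as its RPKM divided by the summed RPKM of Mxd1, Mxi1, Mxd3, Mxd4 and Mnt. This is a description, with no test, because the members were chosen with results of these data known. The ratio was 3.89, 2.58, 6.81, 3.06 and 1.94 in the controls and 2.34, 2.61 and 1.51 at 45 min. It was 1.33, 1.34 and 1.38 at 135 min and 1.06, 1.001, 0.965 and 0.949 at 405 min. All 7 later samples lay below every control, and all 4 samples from 405 min lay below all 3 from 135 min. The mean ratio was 3.66 ± 1.90 in control, 2.16 ± 0.573 at 45 min, 1.35 ± 0.025 at 135 min and 0.993 ± 0.049 at 405 min (SD). The highest control ratio was that of replicate 3, and the other 4 spanned 1.94 to 3.89.

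The terms of the ratio stood differently at the later times. At 135 min Myc was at 12.2 ± 1.19 RPKM and the antagonists summed to 9.05 ± 0.867 RPKM, against 29.7 ± 5.13 and 9.83 ± 4.55 RPKM in control, and the antagonist sums lay inside the control range (3.82 to 14.7 RPKM). At 405 min Myc was at 15.4 ± 2.69 RPKM and the antagonists summed to 15.5 ± 2.82 RPKM, with 3 of 4 sums above every control. Those 3 sums (14.81, 16.74 and 18.54 RPKM) were all of set 2, whose 1 control had 14.69 RPKM. The 1 sample of set 1 from 405 min had 11.95 RPKM, inside the set 1 control range of 3.82 to 14.08 RPKM. In both library sets the ratio was lower at the later times: in set 2 it was 2.58 in the control, 1.51 at 45 min and 0.949 to 1.06 at 405 min, and in set 1 it was 1.94 to 6.81 in control, 1.33 to 1.38 at 135 min and 0.965 in the 1 sample from 405 min. Mxd3 contributed most to the sum, and without it the mean ratio was 6.56 ± 2.66, 4.30 ± 1.19, 2.34 ± 0.189 and 1.86 ± 0.060 at the 4 times.

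**Figure D3:**
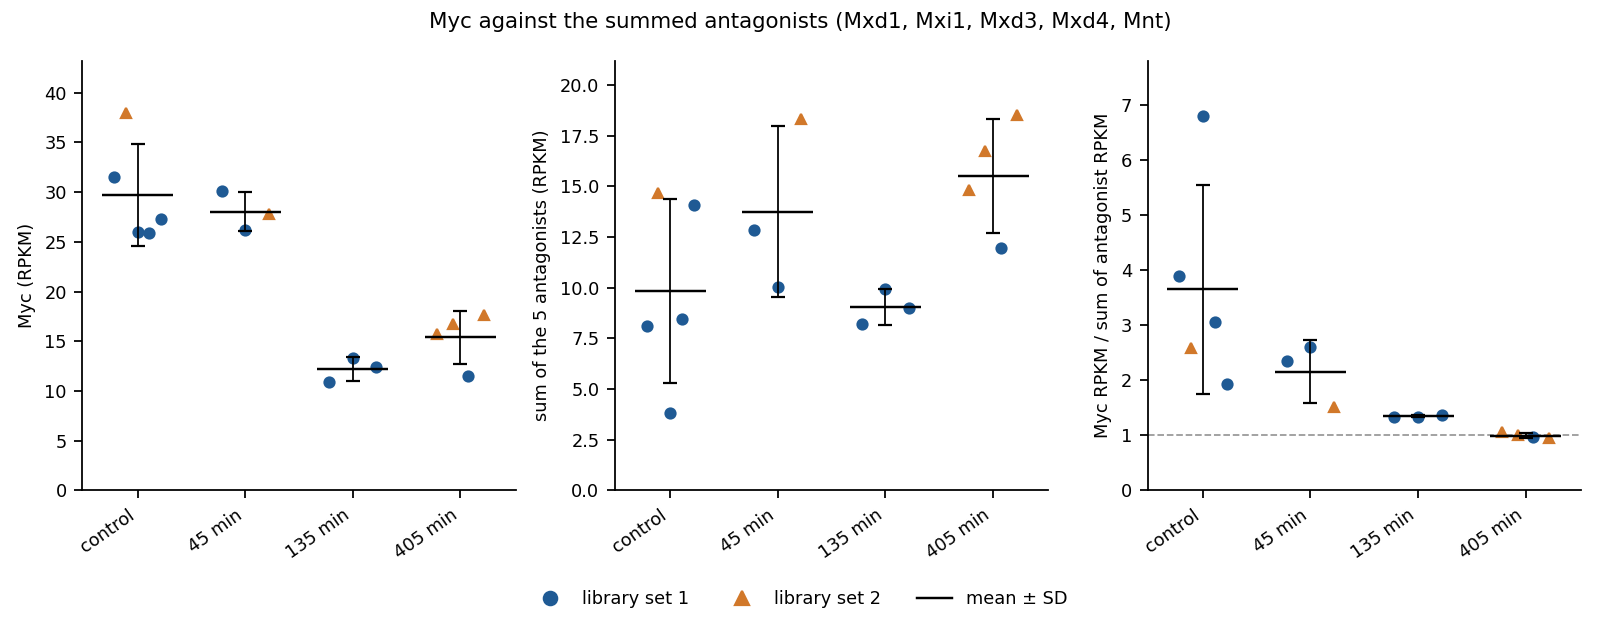
Myc RPKM, the summed RPKM of the 5 antagonists, and their ratio (dashed line at 1) in each sample by time, all on linear axes from 0. Points are samples coloured by library set, with mean and SD; the ratio is 1.94 to 6.81 in control, 1.33 to 1.38 at 135 min and 0.949 to 1.06 at 405 min.

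The genes whose levels followed Myc most closely were not network members. Only 7 of the 10276 genes tested were members, Myc included, so this says little about the network. Over 15 samples, the highest Pearson correlations of log2 CPM with Myc were those of Pcdh18 (a protocadherin, r = 0.961), Fgfr2 (a fibroblast growth factor receptor, 0.951), Fhdc1 (a formin, 0.945), Cebpd (a transcription factor of the C/EBP family, 0.945) and Kcna4 (a potassium channel, 0.921). Over the 10 samples of set 1 alone the values were 0.979, 0.962, 0.952, 0.962 and 0.973. These points share libraries and time groups, and the values are descriptions of genes selected for being highest. Cebpd had the largest change of the 5, with log2 fold changes of -3.06 (SE 0.32) at 135 min and -2.33 (SE 0.27) at 405 min. Within the network, Myc was most like Mnt (r = 0.45), Max most like Myc (0.427), Mlx and Mnt most like each other (0.773), Mxd1 and Mxi1 most like each other (0.732), and Mxd3 most like Mlx (0.743). In set 1 alone the values were 0.756 for Myc and Mnt, 0.538 for Max and Myc, 0.548 for Mlx and Mnt, 0.712 for Mxd1 and Mxi1, and 0.37 for Mxd3 and Mlx.

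The cofactors of the network and the genes that control MYC protein were mostly not called. Of 8 tested genes among Mga, Mlxip, Mlxipl, Zbtb17, Trrap, Ruvbl1, Ruvbl2, Sin3a and Sin3b, none passed at 45 or 135 min and 2 rose at 405 min, with a list median log2 fold change of 0.36 against -0.00 over all genes and beside 9.99% of all genes called higher. These were Trrap, the MYC coactivator (112 ± 63.5 CPM in control and 301 ± 64.3 at 405 min, log2 fold change 1.34, SE 0.35, adjusted p = 0.0161 by edgeR), and Sin3b, a scaffold of the corepressor that MXD proteins recruit (31.6 ± 17.3 and 69.9 ± 19.9 CPM, 1.06, SE 0.34, adjusted p = 0.0369). With the library set as a covariate Trrap passed (0.94, SE 0.29, adjusted p = 0.0392) and Sin3b did not (0.57, SE 0.25, adjusted p = 0.149). The count of 2 was 0 without 405 min replicate 1, 4 without control replicate 2 or 405 min replicate 3, and 1 (Trrap) without control replicate 1, 4 or 5 or 405 min replicate 2 or 4. Of 8 genes for MYC protein turnover, 1 rose at 405 min, the ubiquitin ligase Huwe1 (log2 fold change 0.72, SE 0.19, adjusted p = 0.0166 by edgeR), a share near the 9.99% of all genes called higher. It did not pass at 405 min with the covariate (adjusted p = 0.054), under which Huwe1 and the ubiquitin ligase subunit Fbxw7 were called higher at 135 min (0.65, SE 0.15, adjusted p = 0.0179, and 0.80, SE 0.21, adjusted p = 0.0308), beside 3.06% of all genes. Fbxw7 was named after its values were seen. At 405 min the list's count was 4 higher and 1 lower without control replicate 2, 2 higher and 1 lower without 405 min replicate 3, and 0 without 405 min replicate 1 or 2. Without control replicate 2, 2517 of 10287 genes were called higher and 2463 lower. Without 405 min replicate 3 these were 1508 and 2052 of 10298. Without 405 min replicate 1 or 2, 418 of 10289 and 502 of 10278 genes were called higher.

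Of the genes known as MYC-activated, none was called at 135 min, when the mean of Myc was lowest, and some fell by 405 min. None of the 28 tested passed at 45 min either, and the median log2 fold change at 135 min was 0.03 against -0.06 over all genes. At 135 min only 0.564% of all genes were called higher and 0.895% lower, shares at which a list of 28 may well hold no call. At 405 min 12 of 28 fell and none rose, with a median of -0.32 against -0.00 over all genes, beside 13.4% of all genes called lower. The 4 with the largest changes were Gnl3, nucleostemin (178 ± 83.6 CPM in control and 76.8 ± 20.5 at 405 min, log2 fold change -1.36, SE 0.36, adjusted p = 0.0179 by edgeR), the proliferation-associated Pa2g4 (-1.35, SE 0.39, adjusted p = 0.0267), and the small nucleolar RNP proteins Dkc1 (-1.31, SE 0.27, adjusted p = 0.00454) and Nop58 (-1.30, SE 0.30, adjusted p = 0.00946). In the fit with the library set, Gnl3 (-0.71, SE 0.26, adjusted p = 0.0891) and Pa2g4 (-0.65, SE 0.30, adjusted p = 0.17) did not pass. Between 135 and 405 min 5 of the 28 fell, namely Dkc1, Ldha, Nolc1, Nop58 and Tfrc, beside 2.82% of all genes called lower. With the covariate 2 fell (Ccnd2 and Tfrc, beside 2.01% of all genes). Leaving out any 135 min sample or 405 min replicate 1 or 4 left 1 (Tfrc), leaving out 405 min replicate 2 left 2, and leaving out 405 min replicate 3 gave 7. In these fits, all genes called lower ran from 23 of 10287 (without 135 min replicate 2) to 600 of 10298 (without 405 min replicate 3).

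The number of MYC-activated genes called depended on the library set and on single libraries. With the set as a covariate 5 of 28 fell at 405 min, where 6.87% of all genes were called lower, and the list median was -0.32 against -0.01 over all genes. These 5 were Ccnd2, Dkc1, Ldha, Nop58 and Tfrc, named because they are the whole count, after their values were seen. Ldha, the lactate dehydrogenase subunit whose promoter is printed above with 2 E-boxes, was at 851 ± 119 CPM in control, 704 ± 38.3 at 135 min and 479 ± 27.2 at 405 min (log2 fold change -0.85, SE 0.15, adjusted p = 0.00136 by edgeR with the covariate). Tfrc, the transferrin receptor, was at 237 ± 10.6, 290.2 ± 10.2 and 156 ± 11.1 CPM (-0.61, SE 0.10, adjusted p = 0.000622). Leaving out 1 library each gave 4 to 12 genes lower at 405 min, with 4 when 405 min replicate 1 or 4 was left out, 7 without 405 min replicate 2 or control replicate 4 and 9 without control replicate 3. Dkc1, Ldha, Nop58 and Tfrc were called lower in all 9 of these fits. Over these fits, all genes called lower ran from 528 of 10281 (without 405 min replicate 4) to 2463 of 10287 (without control replicate 2). Without control replicate 2, 6 of the 28 were called higher, beside 2517 of 10287 genes. At 135 min the fit with the covariate called 3 of 28 higher (Cad, Cdc25a and Polr1b) and none lower, beside 3.06% of all genes called higher and 4.88% lower. Cdk4, with 4 E-boxes in its window, had log2 fold changes of 0.14 (SE 0.34, adjusted p = 0.919) and 0.16 (SE 0.32, adjusted p = 0.714) at 135 and 405 min.

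Genes known as MYC-repressed changed in both directions. Of 6 tested, 1 rose and 2 fell at 135 min, and 2 rose and 3 fell at 405 min, with list medians of -0.74 and -0.31 against -0.06 and -0.00 over all genes. Of all genes, 0.564% were called higher and 0.895% lower at 135 min, and 9.99% and 13.4% at 405 min. Cdkn1a, the cell-cycle inhibitor p21, rose from 25.2 ± 7.43 CPM in control to 121 ± 5.05 at 135 min (log2 fold change 2.29, SE 0.25, adjusted p = 0.000218 by edgeR) and 96.6 ± 30.1 at 405 min (1.83, SE 0.24, adjusted p = 0.000247). At 45 min Cdkn1a was already at 70.5 ± 30.7 CPM (1.41, SE 0.25, adjusted p = 0.585 by edgeR). With the library set as a covariate it passed at 45 min (1.28, SE 0.15, adjusted p = 0.00224), as 1 of 3 genes called higher. Gadd45a, a growth-arrest and DNA-damage gene, rose at 405 min (1.51, SE 0.29, adjusted p = 0.00302). The study counts Cdkn1a and Gadd45a among known targets of the transcription factor p53. Its knockdown of p53 lessened the induction of Cdkn1a in RT-qPCR at 135 min. The part of Myc in the rise of these 2 genes was not tested. The other called genes went down: Gas1, a membrane protein of growth-arrested fibroblasts (-1.83, SE 0.23, adjusted p = 0.000597 at 135 min and -1.10, SE 0.20, adjusted p = 0.0027 at 405 min), the matrix protein thrombospondin, Thbs1 (-1.62, SE 0.22, adjusted p = 0.000336 at 405 min), and the growth factor receptor Pdgfrb (-0.92, SE 0.21, adjusted p = 0.0418 at 135 min and -0.70, SE 0.19, adjusted p = 0.0204 at 405 min). With the library set as a covariate these 5 genes kept their directions at 405 min and all passed, while at 135 min Gadd45a joined the higher genes and Cdkn1b the lower ones. Under that fit 6.17% of all genes were called higher and 6.87% lower at 405 min, and 3.06% and 4.88% at 135 min. Cdkn1a and Gas1 were called at both 135 and 405 min in every fit that left out 1 library. Pdgfrb was called at 135 min in 1 of 8 such fits (without control replicate 2) and at 405 min in all but the fit without 405 min replicate 2.

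Of the Mondo and MLX targets, Txnip and Arrdc4, Txnip fell at 135 min (12.8 ± 4.85 CPM in control and 4.43 ± 0.899, log2 fold change -1.51, SE 0.34, adjusted p = 0.0393 by edgeR) and was at 14.1 ± 4.41 CPM at 405 min (0.03, SE 0.29, adjusted p = 0.95). Its fall at 135 min also passed with the covariate (-1.38, SE 0.28, adjusted p = 0.00857), but not in the group-only fit when control replicate 1, 4 or 5 or any 135 min sample was left out. Txnip was higher at 405 than at 135 min (1.53, SE 0.35, adjusted p = 0.0236), and with the covariate this was 1.07 (SE 0.34, adjusted p = 0.0996). Markers of the cell type moved too: 4 of 7 fibroblast markers (Col1a2, Pdgfrb, Postn and Vim) were called lower at 405 min, beside 13.4% of all genes, and 1 of 7 (Pdgfrb) at 135 min, beside 0.895%. At 405 min the count was 3 with the library set as a covariate, beside 6.87% of all genes called lower. It was 1 to 4 on leaving out 1 library, with 1 without 405 min replicate 4 and 2 without 405 min replicate 2. In those 2 fits, 528 of 10281 and 629 of 10278 genes were called lower. Of the markers of other cell types, Cd68 was at 3.20 to 3.94 CPM at 405 min against 0 to 1.92 in control and Cdh5 at 0.836 to 1.40 against 0 to 0.48 CPM, while Epcam, Cdh1, Ptprc and Pecam1 were at 0.388 CPM or less at 405 min. The part of these in the results above was not tested.

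**Figure D4:**
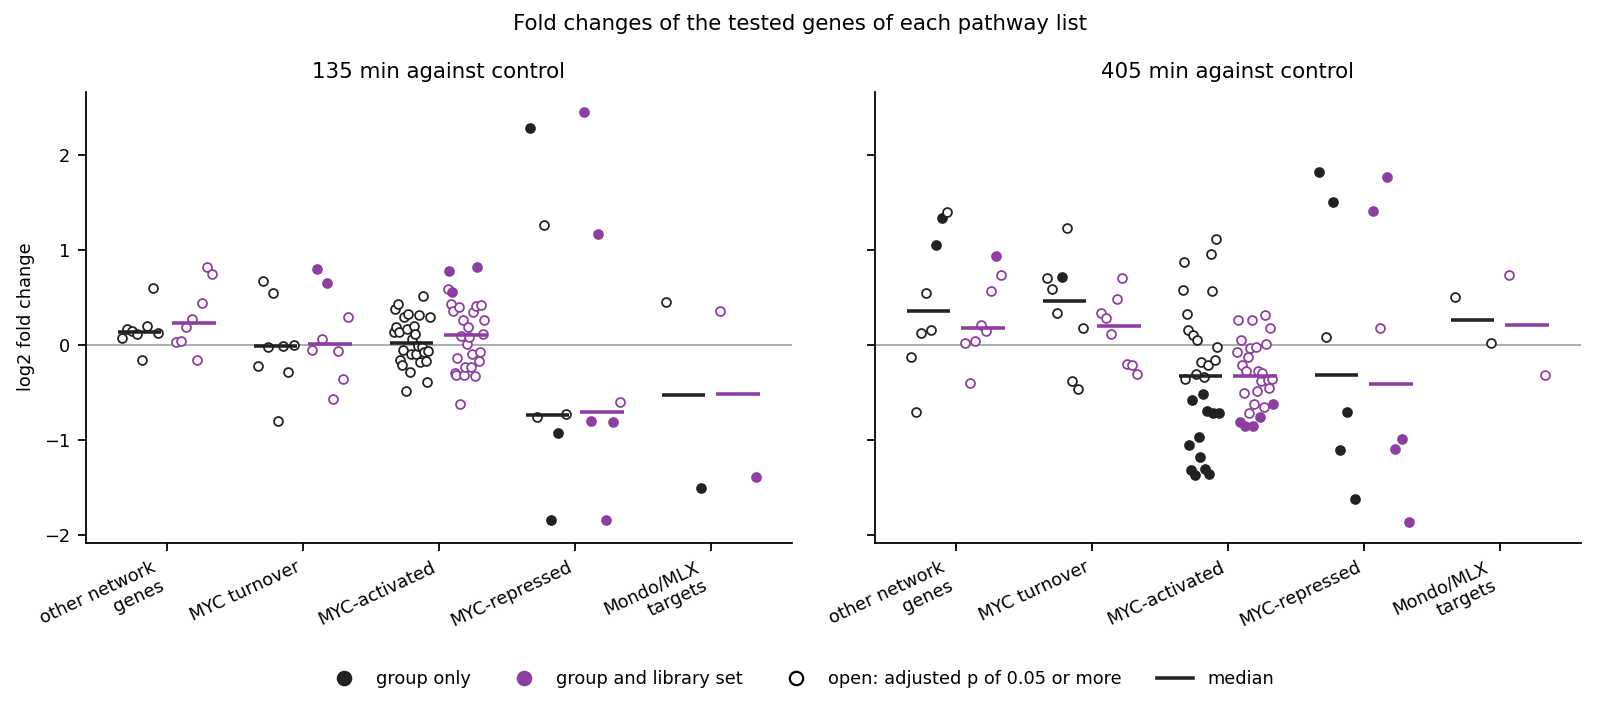
Log2 fold change of each tested gene in 5 pathway lists at 135 and 405 min against control, from the fit with group alone (dark) and with group and library set (purple). Filled points have an adjusted p under 0.05 and bars are medians; the MYC-activated genes have medians of 0.03 at 135 min and -0.32 at 405 min in the group-only fit.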

How the data were processed

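Libraries had been made from poly(A) RNA. The labels name a NuGEN Encore kit for every sample, and the study's methods describe both that kit and a modified Illumina genomic DNA protocol, without saying which samples had which. Reads were aligned by the authors to the mm9 assembly against RefSeq on the DNAnexus platform; the aligner and its version are not given in the sources used here. What the authors deposited per gene was an expected count, which need not be whole (8.7% to 15.6% of genes in a sample held a fraction). The authors also deposited RPKM, reads scaled to transcript length and library size, a standardised score (Z score, not used) and the ratio of RPKM to its root mean square (not used). The deposited RPKM used a transcript length that differed between samples by 14.7% for Mlx and 3.22% for Mxi1, so tests used counts. RPKM was also not scaled to the count totals used for CPM. Myc was at 219 CPM and 26.0 RPKM in control replicate 3, but at 116 CPM and 27.3 RPKM in control replicate 5. The RPKM means, SDs and ranges given here carry this difference, while ratios of RPKM within a sample do not.

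Counts were rounded and tested with edgeR 4.0.16 (R 4.3.3), the tool and threshold of the study, with 10276 genes that had no zero in any of the 15 samples, TMM factors, a quasi-likelihood fit with 1 term for group over all samples, and Benjamini-Hochberg adjustment over all tested genes with a threshold of 0.05. CPM were counts over library totals. The SE was obtained from the log2 fold change and the F statistic. The method was tested on simulated data. Replicate pairs differed by more than sampling noise (22 pairs, chi-square per degree of freedom 11.98 to 274.4). Totals of 6652539 to 30258404 counts give a gene with 10 counts a sampling error of 31.6%. Library sets were split at the largest gap in GC slope. Alternatives were DESeq2 1.42.0 and its size factors, other filters, only the groups compared, a replicate block, the library set as a covariate or alone, a GC offset, and leaving out each sample.

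The 10 members, the gene lists and the tests were chosen with earlier results of these data known. All members were named. One gene of the MYC turnover list is not reported here and was left out of that list's counts. From each list up to 4 genes were named, those called at 135 or 405 min with the largest change, and the 5 genes most correlated with Myc. Any other gene named makes up a count of 5 or fewer, is a cell marker, or was chosen after its values were seen. Promoter windows came from RefSeq (GRCm38.p6), gene coordinates from the files (mm9), and Myc had no entry among the windows.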

Additional observations from a re-analysis of the deposited data

Results flagged for a closer look

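The Mycl1 level in the control group was flagged because 1 of its 5 libraries stood apart: control replicate 2 had 0.0533 CPM and the others 0, so its gap was the whole range (a ratio of 1.0). That library held a single count. With 0 in every other library the ratio is 1.0 by construction. The rule's rate of about 1 in 20 groups therefore does not apply here. In all, 22 groups, of members and of the ratio of Myc to its antagonists, were examined with 1 flag.

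Mlx was flagged because its change at 405 min differed from its change at 135 min by 1.62 on the log2 scale (edgeR quasi-likelihood test of 405 min against 135 min, SE 0.34, adjusted p = 0.016), against control changes of -0.60 at 135 min and 1.01 at 405 min. All 3 samples from 135 min were in library set 1 and 3 of 4 from 405 min in set 2, and with the set as a covariate the difference was 0.99 (adjusted p = 0.0829).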

How the results depend on the processing

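The call of Myc held under 20 of 20 alternatives at 135 min and 21 of 22 at 405 min (adjusted p of 3.51e-06 to 0.0562), the exception being library set 1 alone, with 1 sample at 405 min. Mlx and Mxi1 passed at 405 min under 12 and 13 of 22. Against control, 3 members were called at 405 min, but 1 under the replicate block, the library set, or both, and 0 in set 1 alone. Against 135 min, 1 was called, but 3 by DESeq2 or with only the groups compared and 0 under the block, the set, both, the block with the GC offset, filterByExpr with the set, or set 1 alone. At 135 min 1 was called, but 2 with filterByExpr and filterByExpr with the set (adding Mycl1, which passed that filter through the groups where it was high), and 2 under the block with the set (adding Mnt). Why these differ was not tested. Leaving out 1 library each, 1 to 4 members were called at 405 min and 0 to 3 against 135 min, all genes called ran from 43 to 297 at 135 min, 959 to 4980 at 405 min and 42 to 1177 between these times, and control replicate 2 gave the highest count in the control comparisons.

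Genes called at 45 min were 0, but 6 by DESeq2, 4 with the set (also with filterByExpr), 2 with the GC offset and 1 under the block with the set. At 135 min they were 150.0, but 430.0 by DESeq2, 80.0 with no filter, 40.0 with only the groups compared, 31 under the block, 815 with the set, 577 in set 1, 278 with the GC offset, 621 and 87 under the block with the set and with the GC offset, and 670.0 with filterByExpr and the set. At 405 min they were 2409, but 812 with only the groups compared, 800.0 under the block, 1340.0 with the set, 215 in set 1, 482 in set 2, 1228 and 1572 under the block with the set and with the GC offset, and 1218 with filterByExpr and the set. Between these times they were 520.0, but 1504 by DESeq2, 207 with no filter, 3204 with only the groups compared, 15 under the block, 0 in set 1, 886 with the GC offset, 214 and 235 under the block with the set and with the GC offset, and 317 with filterByExpr and the set.

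Small log2 fold changes turned sign. Mlx at 45 min (0.010) was -0.014 with DESeq2 size factors, -0.013 by DESeq2, -0.0029 with filterByExpr, -0.0075 with no filter, -0.18 with the set, -0.40 in set 1, -0.087 with the GC offset, -0.10 and -0.086 under the block with the set and with the GC offset, and -0.19 with filterByExpr and the set. Mnt at 45 min (0.18) was -0.22 with the GC offset and -0.054 and -0.37 under the block with the set and with it. Mnt at 405 min (0.32) was -0.025 with the set, -0.037 in set 1, -0.048 in set 2, -0.35 with the GC offset, -0.085 and -0.42 under the block with the set and with it, and -0.035 with filterByExpr and the set. Max in set 2 was 0.063 at 45 min and 0.084 at 405 min, and between 135 and 405 min 0.029 under the block and 0.025 with the set added. Mxd3 at 135 min was 0.10 under the block with the set, and Myc between 135 and 405 min was -0.048 in set 1. Leaving out 1 library each gave -0.098 to 0.072 for Max, -0.41 to 0.20 for Mlx and -0.052 to 0.34 for Mnt at 45 min, -0.12 to 0.046 for Max and -0.039 to 0.43 for Mxd1 at 135 min, and -0.10 to 0.031 for Max between 135 and 405 min. With lengths from GENCODE, the mean log2 ratio of Myc to its antagonists was 0.61 in place of 0.43 at 135 min and 0.16 in place of -0.011 at 405 min, where leaving out 1 library each gave -0.042 to 0.011.

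Replicate numbers did not pair the samples: same-numbered samples had a mean correlation of -0.11 over 19 pairs (4 over 0.1), and 2 of 15 samples were most like one of their own number. Under the block, Myc was -1.68 (adjusted p = 0.0207 by edgeR) at 135 min and -1.23 (adjusted p = 0.0126) at 405 min, and at 405 min Mlx (1.06, adjusted p = 0.0816) and Mxi1 (0.68, adjusted p = 0.066) did not pass. The fit with filterByExpr and the library set was chosen after seeing the data. Mycn, Mycl1 and Mxd4, with few counts, are limited by depth. In set 2 no sample came from 135 min, so no value exists there.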
